A study of Mus musculus with 12 samples.

Results

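The lipogenic genes described here are Srebf1, Mlxipl and Thrsp, which regulate the pathway, and Acaca, Acacb, Fasn, Elovl6, Elovl5, Scd1 and Me1, which encode its enzymes. H3K27ac regions were assigned to them by the gene name that the deposited table gives each region, with no measured value used in the choice. They carried 69 of the 36387 regions in the table, under 10 of its 11240 gene names. No filter on low values was applied, so all 69 were tested, and the lowest value in any library corresponded to 8 reads. The name is that of the nearest gene, and a region may act on another.

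Lipogenesis converts carbohydrate into fatty acids in the liver. Acetyl-CoA carboxylases make malonyl-CoA, fatty acid synthase builds palmitate from it, elongases lengthen the chain, stearoyl-CoA desaturase places a double bond in it, and malic enzyme is a source of the NADPH that the synthesis consumes. The transcription factors SREBP-1c, made from Srebf1 and activated under insulin, and ChREBP, made from Mlxipl and activated by sugar metabolites, raise the expression of most of these enzymes after feeding. H3K27ac, acetylation of histone H3 at lysine 27, marks active promoters and enhancers.

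The libraries came from regenerating mouse liver, labelled wild type or Cox10-/-, with 3 H3K27ac libraries of each genotype. Cox10 encodes an enzyme of heme A synthesis, which the assembly of cytochrome c oxidase requires. Per the labels' protocols all mice carried a floxed Cox10 allele, received AAV8-GFP or AAV8-Cre once by retroorbital injection, underwent 70% partial hepatectomy 4 weeks later, and gave liver on day 2 after it, on standard chow. The labels do not say library by library which virus was given, nor the promoter driving Cre, the strain, sex or age, nor whether libraries of a genotype came from separate animals. The p-values therefore measure the spread between these libraries, which may be technical. In whole liver, fewer cells carrying the mark and less mark per cell cannot be told apart.

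The regions held 3897454 to 4187377 reads per wild-type library and 3282878 to 3385453 per knockout library. Values are reads divided by 1 size factor per library, called normalised reads below, and fold changes are on the log2(value + 1) scale. On this deposited scale 87.2% of all regions were lower in the knockout and 4.46% were higher (limma, Benjamini-Hochberg adjusted p under 0.05), and the median region was 2.06-fold lower. With every library set to the level of its own median region, a shift of 1.05 on the log2 scale, 32.4% were lower and 33.6% higher. Changes are given below on both scales, the second as "relative to the median region" or "on the centred scale". The single region of Cox10, in intron 5 of 6, was 3.62-fold higher in the knockout, and such a region does not check the deletion. All 10 hepatocyte marker genes had regions, whose summed signal was 21074 to 21762 normalised reads in wild type against 6303 to 7239 in the knockout. Of 52 marker genes of 6 other cell types, 37 had no region, among them the Kupffer cell markers Adgre1 and Clec4f, the endothelial markers Kdr and Cdh5, and the adipocyte genes Adipoq and Lep. The 3 adipocyte genes with regions summed to 2570 to 2633 in wild type against 1581 to 1821 in the knockout, and the 3 endothelial genes to 580.3 to 636 against 361 to 449.5. The 3 biliary genes summed to 1419 to 1437 against 661 to 759.7, the 2 lymphoid and blood genes to 966 to 1060.3 against 459.9 to 549, and the 1 stellate gene to 66.5 to 105.1 against 31.8 to 49.2. The 3 macrophage and Kupffer genes with regions summed to 3262 to 3442 in wild type against 2129 to 2451 in the knockout. These sums are on the deposited scale, where median log2 changes were -1.59 for hepatocyte regions and -1.04 for all regions. They were -0.51 for macrophage and Kupffer, -0.36 for endothelial and -0.68 for adipocyte regions. Biliary regions were at -0.91, lymphoid and blood at -0.96, and stellate at -0.90. Called higher were 6 of 28 macrophage, 4 of 25 adipocyte, 2 of 13 biliary, 1 of 10 endothelial and 2 of 106 hepatocyte regions. The part of cell composition in the results below was not tested.

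The upstream bases of 3 promoters are shown because they stand at the ends of the results: Srebf1 at the promoter that fell most, Mlxipl at the promoter with a sterol regulatory element sequence, and Me1 at the promoter that changed least. Each line holds the 250 bases upstream of a RefSeq start site (build GRCm38.p6), 5′ to 3′ on the gene's strand. The Srebf1 stretch is chr11:60210472-60210721 on the minus strand, the Mlxipl stretch chr5:135106641-135106890 on the plus strand, and the Me1 stretch chr9:86695915-86696164 on the minus strand. Capitals mark matches on either strand to TCACNCCAC (sterol regulatory element), CACGTG (E-box), CCAAT (bound by NF-Y), GGGCGG (the box that Sp1 binds) or TATAAA (the core promoter element that TBP binds).
Srebf1: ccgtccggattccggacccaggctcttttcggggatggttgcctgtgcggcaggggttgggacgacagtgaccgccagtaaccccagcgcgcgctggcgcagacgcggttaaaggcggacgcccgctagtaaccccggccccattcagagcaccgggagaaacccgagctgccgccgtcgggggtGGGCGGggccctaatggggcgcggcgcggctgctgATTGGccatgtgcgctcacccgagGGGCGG
Mlxipl: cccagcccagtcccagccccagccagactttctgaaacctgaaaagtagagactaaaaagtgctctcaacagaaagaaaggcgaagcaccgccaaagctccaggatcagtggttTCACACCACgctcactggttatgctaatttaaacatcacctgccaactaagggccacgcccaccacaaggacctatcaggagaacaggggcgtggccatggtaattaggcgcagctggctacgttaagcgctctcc
Me1: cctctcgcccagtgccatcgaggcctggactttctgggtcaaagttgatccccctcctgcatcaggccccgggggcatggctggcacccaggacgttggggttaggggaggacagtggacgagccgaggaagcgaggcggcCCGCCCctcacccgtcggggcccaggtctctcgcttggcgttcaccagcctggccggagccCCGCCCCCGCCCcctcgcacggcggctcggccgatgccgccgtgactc

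The Srebf1 stretch holds 2 GC boxes and 1 NF-Y box, read as ATTGG on the other strand. The Mlxipl stretch holds 1 match to the sterol regulatory element, TCACACCAC, which begins 136 bases upstream of the start site, and no match to the other 4 motifs. The Me1 stretch holds GC boxes read as CCGCCC, an adjoining pair of which begins 48 bases upstream of the start. RefSeq gave 13 promoter windows of 300 bases for 9 of the 10 genes. Among them 1 window held the sterol regulatory element, against 1.24% of 32851 windows of all genes. The E-box was found in 2 of the 13, at the upstream start of Mlxipl and at Elovl5 (7.15% of all windows), the NF-Y box in 8 (37.4%), the GC box in 4 (35.7%) and the TATA box in 1, at Acacb (13.6%). Thrsp held 2 NF-Y boxes and Fasn 3. The single windows of Acaca and Acacb overlapped no H3K27ac region. The middle of the main promoter region lay at -14828 bases from that start for Acaca and at -18583 for Acacb. The TATA box is therefore not at the Acacb main promoter region described below. These are matches of letters within the windows and do not show that a factor was bound.

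Of the 69 regions of the lipogenic genes, 63 had less H3K27ac in the knockout, 4 had more and 2 were called neither way. These are 91.3% and 5.80%, beside the 87.2% and 4.46% of all regions, so the count of falls lies near the background. The 4 rises were all assigned to Me1 or Acacb. The median region of the lipogenic genes was 2.38-fold lower (log2 -1.25), beside -1.04 for all regions. Libraries of the 2 genotypes did not overlap at 66 of the 69 regions, and at 90.9% of all regions. Relative to the median region, 26 were lower, 11 higher and 32 not called, with a median of -0.20. These are 37.7% lower and 15.9% higher, beside 32.4% and 33.6% of all regions. The sum over the 69 regions was 9254, 9015 and 9227 normalised reads in the wild-type libraries against 4329, 4209 and 3815 in the knockout libraries. Every knockout sum lay below every wild-type sum, and the mean was 55.1% lower (exact permutation test, two-sided, p = 0.1, the smallest that 3 against 3 libraries allow). As a share of all normalised reads the regions fell from 0.170% ± 0.0023 to 0.154% ± 0.00046 (SD, n = 3), again without overlap.

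**Figure D1:**
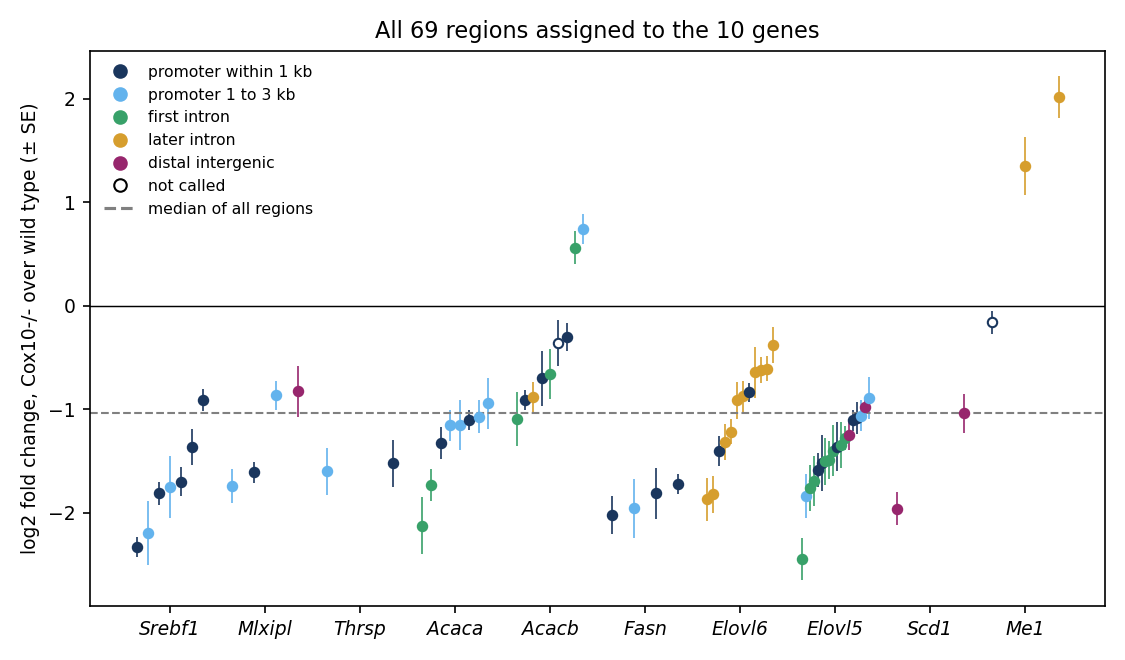
Log2 fold change of H3K27ac, knockout over wild type, at each of the 69 regions of the 10 genes, ordered by value within a gene. Each point is 1 region with its SE, coloured by position class, open points were not called, and the dashed grey line is the median of all 36387 regions at -1.04. Regions of Fasn and Thrsp lie close together, those of Me1 stand at -0.16 and above, and Acacb has regions on both sides of 0.

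By position in the deposited annotation, 24 regions lay within 1 kb of a start site and 14 between 1 and 3 kb. A further 13 lay in intron 1 of a transcript, 13 in a later intron, and 5 were distal intergenic. The start sites of this annotation are not all RefSeq starts. Of those within 1 kb, Elovl5 77942056 and Acacb 114175932 had their middle 24788 and 10510 bases from the nearest RefSeq start. Of the 24 within 1 kb, 22 were lower and none higher, beside 92.3% lower and 1.26% higher of all regions of that class. Their median was -1.37, beside -0.87 for the class. At later introns the order was the other way, with -0.88 for the lipogenic genes and -1.30 for the class, where 10 of the 13 regions belong to Elovl6. At intron 1 the medians were -1.49 and -1.25, at 1 to 3 kb they were -1.16 and -1.34, and at distal intergenic regions -1.04 and -1.23.

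Srebf1, on chromosome 11, showed the deepest promoter fall of the lipogenic genes, and all 7 of its regions were lower. Its largest region, from 60208271 to 60210388 (mm10), begins just downstream of the start site whose upstream bases are printed above. It held 601, 601 and 593 normalised reads in the wild-type libraries against 122, 114 and 119 in the knockout libraries. The 3 libraries of each genotype lay within 10 normalised reads of each other, and the genotypes stood far apart. The fall was 5.04-fold (log2 -2.33, SE 0.096, limma adjusted p = 2.6e-62), and relative to the median region it was still -1.28. Among 9663 genes with a promoter region, 1.98% had a main promoter with a lower value. A narrower region upstream of the same start, from 60210701 to 60211421, fell from 159.5 ± 4.23 to 48.6 ± 5.08 (SD, n = 3; log2 -1.70).

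Srebf1 has further start sites upstream, and its regions there fell unequally. The region from 60222249 to 60223431, over the start at 60222581, held 334, 348 and 357 in wild type against 83.3, 104.9 and 106.8 in the knockout, 3.51-fold lower (log2 -1.81, SE 0.11). The region from 60219917 to 60220637 held 235.5, 245 and 298 in wild type against 155, 144 and 115 in the knockout. It was 1.88-fold lower (log2 -0.91, SE 0.11), the least of the 7, and 0.14 above the median region, which was not called except without wild-type library 3 (0.25, adjusted p = 0.035). The region between these, at 60221380, was at -1.37. At the 5′ end of the gene a pair of small regions at 60224273 and 60224548 were 3.37-fold and 4.59-fold lower. A region assigned to the neighbouring gene Tom1l2, beginning at 60224982, was at -2.36. Which Srebf1 product each start makes was not analysed here.

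Mlxipl, on chromosome 5, fell at all 4 of its regions. The main promoter region, from 135106948 to 135108302, starts just downstream of the start site that carries the TCACACCAC match. It held 402, 418 and 404 normalised reads in wild type against 136, 132 and 131 in the knockout, with no overlap. It was 3.05-fold lower (log2 -1.61, SE 0.10, limma adjusted p = 4.9e-38), and -0.56 relative to the median region. The region at 135109315, 1 to 3 kb from a start, was at -1.74, while that at 135108530 was at -0.87 and a distal intergenic region at 135100588 at -0.83. A region near the gene's upstream start, at 135090396 and assigned to Vps37d, was at 0.06 (SE 0.19) and was not called.

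Thrsp encodes a small nuclear protein that is induced with the lipogenic enzymes. Its 2 regions lay upstream of the gene on chromosome 7 and were weak. The promoter region, from 97417838 to 97418081, held 58.5, 53.4 and 63.9 normalised reads in wild type against 20.4, 23.4 and 15.9 in the knockout. It was 2.88-fold lower (log2 -1.52, SE 0.22, limma adjusted p = 2.0e-10). The region at 97419096 was 3.03-fold lower, close to the value at the promoter. On the centred scale they were at -0.47 and -0.55 and called lower. The promoter's call was lost without any 1 of 5 of the 6 libraries, all but knockout library 2, with adjusted p up to 0.154. That of the second region was lost without wild-type library 1, wild-type library 2 or knockout library 1 (adjusted p up to 0.174).

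**Figure D2:**
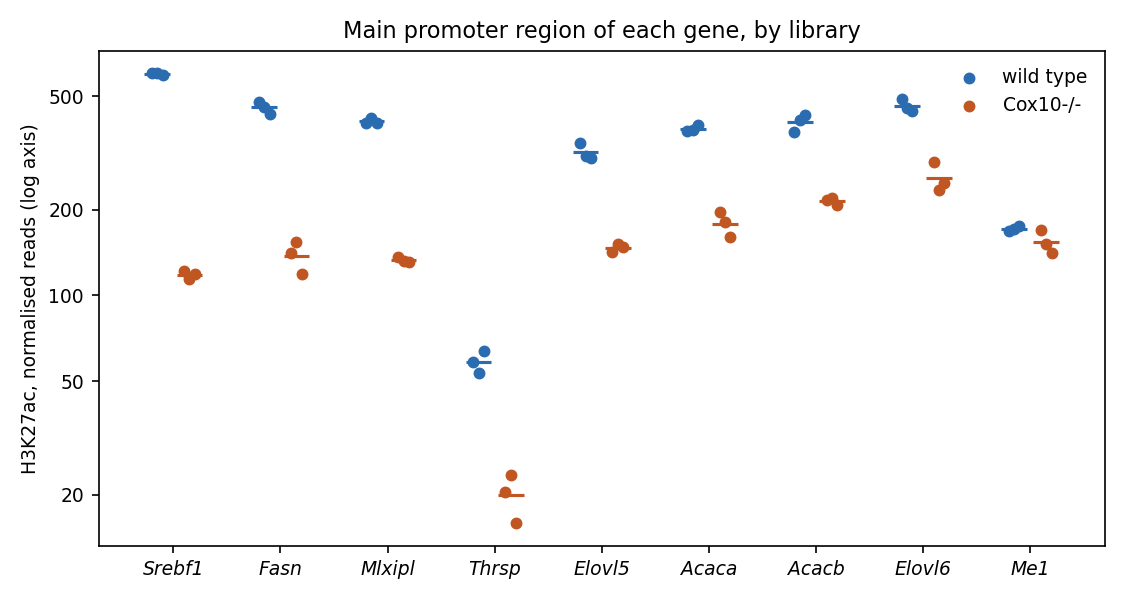
Normalised H3K27ac reads at the main promoter region of the 9 genes that have one, by library. Points are the 3 wild-type and 3 knockout libraries, bars are means, and the vertical axis is logarithmic. The genotypes are separate at every promoter except that of Me1, where the lowest wild-type library (168) lies below the highest knockout library (169.1).

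The acetyl-CoA carboxylases differed. Acaca encodes the cytosolic form that supplies malonyl-CoA for synthesis, and all 8 of its regions on chromosome 11 were lower. Its main promoter region, from 84179858 to 84181361, held 378, 379 and 396 normalised reads in wild type against 195, 181 and 159.9 in the knockout. It was 2.15-fold lower (log2 -1.11, SE 0.097, limma adjusted p = 2.6e-23) and at -0.05 relative to the median region, which was not called. Among the regions assigned to Acaca, the deepest falls lay in intron 1 of 3 of a transcript, at 84145414 (51.2 ± 6.48 to 11 ± 2.21, log2 -2.12) and 84146386 (136 ± 19.0 to 40.4 ± 6.10, log2 -1.73; SD, n = 3). These were the 2 Acaca regions called lower relative to the median region. Regions within the span of the Acaca gene but assigned to Gm11437, at 84164489 and 84167027, were at -1.80 and -2.71. A region assigned to Tada2a, at 84129048 and just upstream of the Acaca 5′ end, was at -1.03.

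Acacb encodes the mitochondrial form, whose malonyl-CoA restrains fatty acid oxidation. Of its 9 regions on chromosome 5, 6 were lower, 2 higher and 1 not called. The main promoter region, from 114146240 to 114147630, held 375, 411 and 429 normalised reads in wild type against 217, 219.5 and 208 in the knockout, 1.88-fold lower (log2 -0.91, SE 0.093, limma adjusted p = 1.9e-18). Inside the gene the direction was the opposite at a pair of neighbouring regions. The region from 114160648 to 114161275, in intron 1 of 52, held 50.6, 49.3 and 75.4 in wild type against 86.7, 83.1 and 85.6 in the knockout, 1.48-fold higher (log2 0.56, SE 0.16, limma adjusted p = 0.00054). The region from 114161786 to 114162636, 1 to 3 kb from a start, held 75.8, 47.9 and 83.1 in wild type against 121, 109.8 and 109 in the knockout. It was 1.67-fold higher (log2 0.74, SE 0.15, limma adjusted p = 9.9e-07). Every knockout library exceeded every wild-type library at both.

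None of the 9 Acacb regions was lower relative to the median region and 4 were higher, those just named at 1.62 and 1.8, the upstream promoter region at 114145533 at 0.75, and 114175932 at 0.69 (not called without wild-type library 1, adjusted p = 0.054). The region at 114145533 was 1.23-fold lower on the deposited scale (limma adjusted p = 0.031), a call lost without wild-type library 3 (adjusted p = 0.112) or knockout library 3 (0.236), and with DESeq2 on the recovered reads (0.116). The calls at 114156827 and 114176179 were likewise lost, the former without wild-type library 3 or knockout library 1 and the latter without wild-type library 1 or knockout library 1, with adjusted p between 0.0503 and 0.180. The region at 114175932, at -0.36 with overlapping libraries, was called lower only without wild-type library 1 (adjusted p = 0.022).

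Fasn, the fatty acid synthase gene on chromosome 11, fell evenly. Its 4 regions, within 2.7 kb of the gene's 5′ end, were between 3.31-fold and 4.06-fold lower. The largest, from 120822732 to 120824091, held 478, 459 and 433 normalised reads in wild type against 141, 154 and 119 in the knockout, 3.31-fold lower (log2 -1.73, SE 0.099, limma adjusted p = 3.6e-42). The region upstream of the start, from 120824739 to 120825088, fell from 103.9 ± 7.95 to 25.1 ± 4.65 (SD, n = 3; log2 -2.02). All 4 were also lower relative to the median region, from -0.67 to -0.97. For the region at 120822384 that call was lost without wild-type library 1 (adjusted p = 0.0698).

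Elovl6 lengthens palmitate to stearate, and all 12 of its regions on chromosome 3 were lower, by 1.30-fold to 3.66-fold. The main promoter region, from 129532845 to 129534582, held 487, 453 and 443.5 normalised reads in wild type against 294, 234 and 248.5 in the knockout, 1.79-fold lower (log2 -0.84, SE 0.09, limma adjusted p = 4.2e-17). The other promoter region, at 129532131 over the RefSeq start, was 2.65-fold lower (log2 -1.40). The remaining 10 regions lay in intron 2 of 4. The farthest 3, at 129591510, 129592141 and 129593317, fell to -1.32, -1.87 and -1.82, while 129570620, 129581710 and 129582745 were at -0.38, -0.61 and -0.62. Relative to the median region 3 of the 12 were lower, the promoter region at 129532131 and the intronic regions at 129592141 and 129593317, and 4 were higher. The call at 129532131 (-0.35) was lost without wild-type library 1, wild-type library 3 or knockout library 2 (adjusted p 0.055 to 0.107). The higher 4 included the main promoter (0.22, limma adjusted p = 0.0049), a call lost without knockout library 1 (adjusted p = 0.064) and when libraries were centred on promoter regions (0.07, adjusted p = 0.38). At 129570620 the libraries overlapped, and its call on the deposited scale was lost without wild-type library 1 or 2 or knockout library 2 or 3 (adjusted p 0.058 to 0.230), and with DESeq2 on the recovered reads (0.144). That at 129548195 was lost without knockout library 2 (0.055).

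Elovl5, an elongase of polyunsaturated fatty acids, had the most regions, 18 on chromosome 9, and all were lower, by 1.86-fold to 5.47-fold. The main promoter region, from 77917443 to 77918517, held 342, 309.5 and 303 normalised reads in wild type against 142, 151 and 148 in the knockout, 2.16-fold lower (log2 -1.11, SE 0.10, limma adjusted p = 1.6e-21). The deepest fall among all 69 regions lay in intron 1 of 7, from 77950594 to 77950930. It held 91.8, 104.1 and 93.3 in wild type against 20.4, 14.5 and 15.9 in the knockout (log2 -2.45, SE 0.20). The region of highest signal, a distal intergenic region from 77910736 to 77911890 about 6 kb upstream, was among the least changed of the 18, from 451 ± 6.45 to 231 ± 40.6 (SD, n = 3; log2 -0.98). Of the 18, 7 were lower relative to the median region and none was higher, while the main promoter was at -0.06 and not called. Of these 7 calls, 4 were lost when 1 library was left out. That at 77926004 was lost without wild-type library 2 or knockout library 1 (adjusted p up to 0.150) and that at 77949972 without wild-type library 3 (0.056). The call at 77951153 was lost without wild-type library 2 or 3 or knockout library 3 (up to 0.194), and that at 77952477 without wild-type library 1 or knockout library 1 or 2 (up to 0.139).

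**Figure D3:**
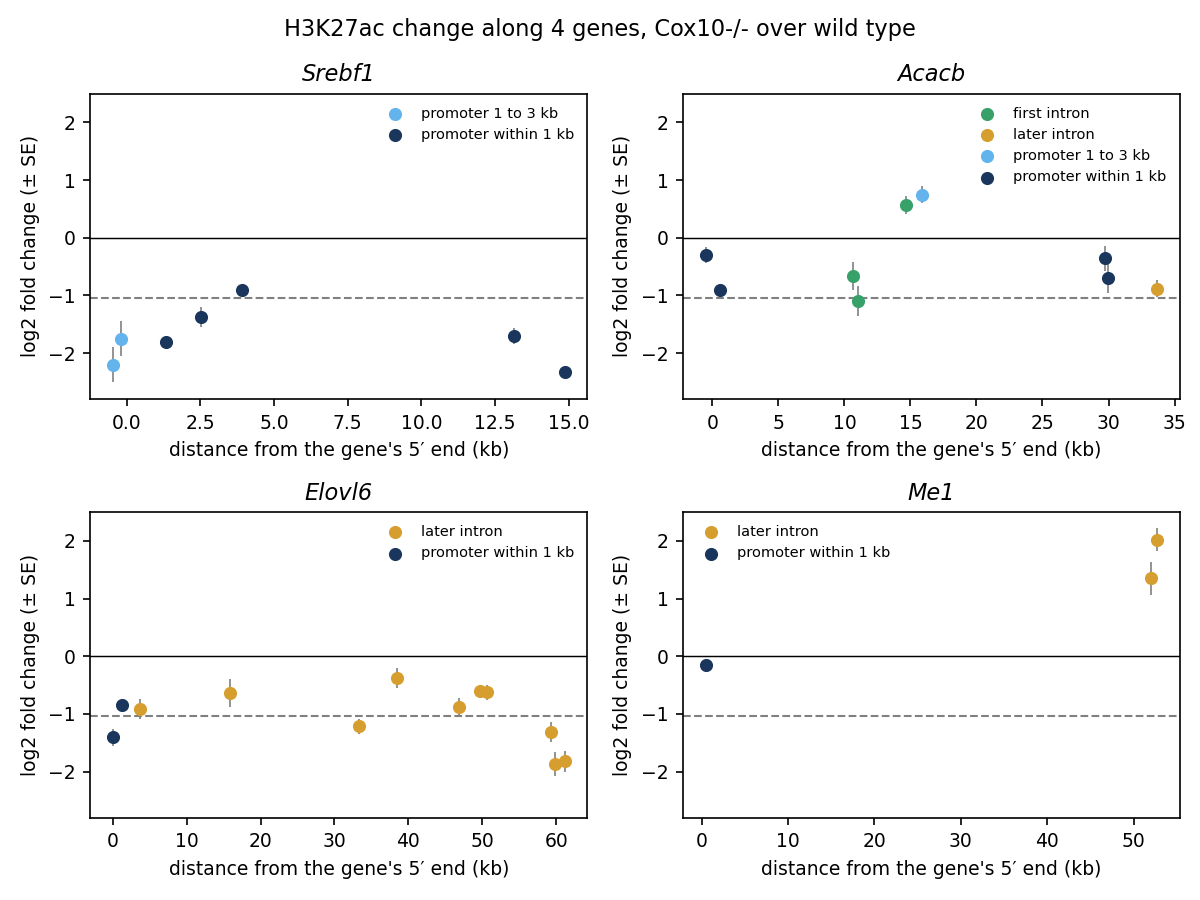
Log2 fold change of H3K27ac, knockout over wild type, against distance in kb from the gene's RefSeq 5′ end for the regions of Srebf1, Acacb, Elovl6 and Me1. Points are regions coloured by position class, error bars are SE, and the dashed grey line is the median of all regions at -1.04. All regions of Srebf1 and Elovl6 lie below 0, while a pair of Acacb regions near 15 kb and a pair of Me1 regions near 52 kb lie above it.

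Scd1, the stearoyl-CoA desaturase gene on chromosome 19, had no promoter region under its name. Its 2 regions were distal intergenic and lay beyond the gene's 3′ end, the nearer 5490 bases from it. The region from 44388076 to 44388523 held 150.3, 122 and 141 normalised reads in wild type against 34.8, 29.9 and 39.4 in the knockout, 3.89-fold lower (log2 -1.96, SE 0.16, limma adjusted p = 2.3e-26). The region at 44388713, a short distance away, was 2.06-fold lower (log2 -1.04) and at 0.01 relative to the median region. H3K27ac at the Scd1 promoter was therefore not analysed here.

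Me1, cytosolic malic enzyme on chromosome 9, had no region that was called lower. Its promoter region, from 86695133 to 86695773, held 168, 171 and 175 normalised reads in wild type against 169.1, 151 and 141 in the knockout. It was at -0.16 (SE 0.11, 95% interval -0.38 to 0.06, limma adjusted p = 0.17) and not called, and 96.2% of promoter genes had a lower value. A region assigned to A330041J22Rik on the other side of the Me1 start, at 86695973, had nearly the same difference (log2 -0.16, SE 0.14, not called). Relative to the median region the Me1 promoter was higher by 0.89 (SE 0.096, limma adjusted p = 3.9e-13).

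A pair of regions in intron 6 of 13 of Me1, weak in wild type, were higher in the knockout on both scales. The region from 86642832 to 86643570 held 16, 28.8 and 19.2 normalised reads in wild type against 109.6, 79.9 and 75 in the knockout, 4.06-fold higher (log2 2.02, SE 0.20, limma adjusted p = 3.9e-19). The region from 86643799 to 86644043 held 10.6, 20.5 and 12.8 in wild type against 44.2, 33.1 and 36.4 in the knockout, 2.55-fold higher (log2 1.35, SE 0.28, limma adjusted p = 4.3e-06). These are the largest and second largest rises among the 69 regions, and the genotypes did not overlap at either. Their wild-type signal was 28.8 and 59.8 normalised reads per kb. Whether they entered the region list through the knockout libraries alone was not tested. If so, their p-values would be partly set by that choice.

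Set side by side, the 9 main promoters fell in the order Srebf1, Fasn, Mlxipl, Thrsp, Elovl5, Acaca, Acacb, Elovl6 and Me1. On the deposited scale 8 were called lower and none higher, beside 93.8% lower and 0.807% higher of the main promoters of all genes. Relative to the median region, Srebf1, Fasn, Mlxipl and Thrsp were lower, Elovl6 and Me1 higher, and Elovl5, Acaca and Acacb not called, beside 15.4% lower and 49.2% higher of all such promoters. Without wild-type library 3, Acacb was called higher (0.18, adjusted p = 0.046). Centred on promoter regions instead, Acaca and Elovl5 were called lower (-0.20 each, adjusted p = 0.019 and 0.032). For each pair of neighbours in this order the log2 ratio of their signals was compared between genotypes. Since the order comes from these same libraries, the direction of each difference was largely set in advance. It did not overlap between genotypes for Srebf1 over Fasn, Thrsp over Elovl5, Acaca over Acacb and Elovl6 over Me1 (exact permutation test, two-sided, p = 0.1 each, the smallest possible). It overlapped for the other 4 pairs (p from 0.4 to 1), which does not show that these pairs changed alike. No adjusted p over the 8 pairs can pass 0.05.

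Per kb of region, the wild-type signal at these promoters was within a narrow range, from 336 ± 16.4 normalised reads per kb at Fasn to 240 at Thrsp. The order was Fasn, Mlxipl, Elovl5, Acacb, Srebf1, Me1, Elovl6, Acaca and Thrsp, and neighbours in it overlapped except for Fasn over Mlxipl and Srebf1 over Me1. In the knockout the range was wider, from 55.8 at Srebf1 to 239.7 at Me1. Across the 69 regions the rank correlation of the log2 change with the wild-type signal per kb was -0.38, and -0.29 across all regions. This is a description, since the regions share libraries and neighbouring regions belong to the same gene. The wild-type signal is also part of the log2 change, so the correlated quantities are not independent.

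Any scaling of a whole library nearly cancels when the promoter regions of a gene are compared with its other regions. This difference was tested over 3665 genes with both kinds of region, of which 21.8% fell and 36.5% rose at promoters relative to their other regions. Of the 9 lipogenic genes that could be tested, 3 fell and none rose. At Me1 the change at the promoter was below that at the other regions by the largest margin of the 9 (log2 -1.85, SE 0.21, limma adjusted p = 2.0e-04), with -0.16 at the promoter and 1.69 at the other regions. Values of this difference were 3.58, 2.77 and 3.40 in wild type against 1.27, 1.53 and 1.41 in the knockout, with no overlap. At Mlxipl the difference was -0.47 (SE 0.11, adjusted p = 0.0062). At Acacb it was -0.30 (SE 0.11, adjusted p = 0.044), a call that held without wild-type library 3 and was lost without any of the other 5 libraries (adjusted p 0.059 to 0.122). For Srebf1 it was 0.35 (95% interval -0.05 to 0.75), and for Thrsp, Acaca, Fasn, Elovl6 and Elovl5 it lay between -0.09 and 0.15, none called. With promoters taken within 3 kb, Mlxipl was not called (-0.58, adjusted p = 0.079), and Acacb turned to 0.21 and was not called (adjusted p = 0.145). Acaca was then called higher (0.80, adjusted p = 0.00045). Me1 has no region annotated between 1 and 3 kb, so its value could not change. Srebf1, Thrsp and Fasn have no region annotated beyond 3 kb and could not be tested this way.

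**Figure D4:**
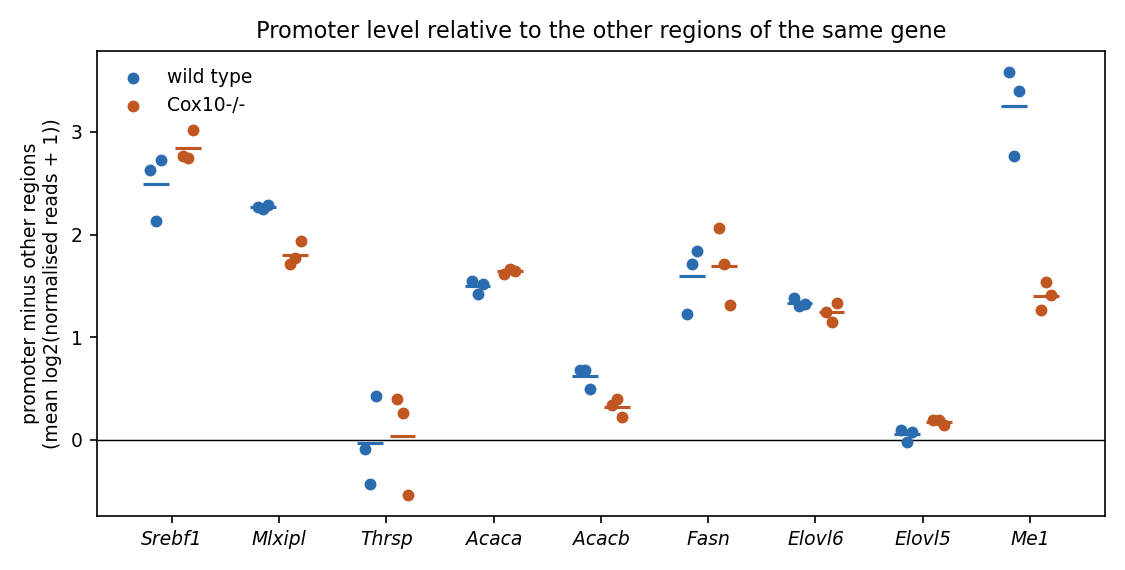
Mean log2(normalised reads + 1) of the promoter regions minus that of the other regions of the same gene, by library, for the 9 genes with both kinds of region. Points are the 3 wild-type and 3 knockout libraries and bars are means. At Me1 the 3 knockout libraries (1.27 to 1.53) lie below the 3 wild-type libraries (2.77 to 3.58), and at Mlxipl and Acacb the knockout libraries are also all below.

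The wider pathway was described at promoters with 6 lists of 120 genes, of which 101 had a promoter region. On the deposited scale 97 were lower, 1 was higher and 3 were not called, beside the 93.8% and 0.807% given above. The median main promoter of all genes was 1.76-fold lower (log2 -0.82), and 0.23 relative to the median region. The centred counts below stand beside 15.4% lower and 49.2% higher of all main promoters, and in none of the 6 lists was the share of higher promoters above that of all genes.

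Genes that bring glucose and fructose into the pathway had the lowest median of the 6 lists. All 9 with a promoter region fell, with a median of -1.70, and 7 of them were also lower relative to the median region and none higher. Gckr, which encodes a regulator of hepatic sugar phosphorylation, fell from 423 ± 15.8 to 88.2 ± 17.9 normalised reads (SD, n = 3; log2 -2.27, SE 0.11). Slc2a2, the hepatic glucose transporter, fell from 601 ± 61.5 to 145 ± 14.6 (log2 -2.04), and Khk, ketohexokinase, from 679.8 ± 38.9 to 181 ± 10.4 (log2 -1.90). Pklr, which encodes liver pyruvate kinase, was at -1.72.

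Among genes that regulate SREBP-1c and ChREBP, 28 of 29 were lower and none higher, with a median of -1.0, and 6 were lower and 10 higher relative to the median region. Rxra, the partner of the liver X receptors at Srebf1, fell from 2335 ± 47.5 to 845 ± 56.9 normalised reads (SD, n = 3; log2 -1.47, SE 0.063), and Ppara, a regulator of fatty acid oxidation, was at -1.58. The promoter of Prkaa1, a catalytic subunit of AMP-activated kinase, held 86.1 ± 7.66 and 83.7 ± 5.66 (log2 -0.04, SE 0.14) and was the 1 not called. Usf2, an E-box factor, was at -0.53 and was higher by 0.52 relative to the median region. Scap and Insig1, which hold SREBP in the endoplasmic reticulum or let it leave, were at -1.25 and -0.97.

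Genes that supply acetyl-CoA and NADPH were lower at 16 of 17 promoters and higher at none, with a median of -0.87. On the centred scale 3 were lower and 8 higher. Pgd, of the oxidative pentose phosphate pathway, was the 1 not called, with 161 ± 7.79 in wild type against 147 ± 11.4 in the knockout (SD, n = 3; log2 -0.13), and H6pd, which makes NADPH in the endoplasmic reticulum, was at -0.64. Both were higher relative to the median region. Mthfd1, of one-carbon metabolism, and Pcx, pyruvate carboxylase, fell to -1.88 and -1.68, and Acly, ATP citrate lyase, was at -1.11.

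Other elongation and desaturation genes were lower at 11 of 13 promoters, higher at 1 and not called at 1, with a median of -1.20. Fads1 and Fads2, the desaturases of polyunsaturated fatty acids, fell to -1.43 and -1.65, and Elovl2 to -1.77. Fads3, in the same gene cluster, was the 1 that rose, from 43.7 ± 4.93 to 66.6 ± 8.75 (SD, n = 3; log2 0.59, SE 0.18, limma adjusted p = 0.0011). Acot2, a mitochondrial thioesterase, was at 0.08 and not called. On the centred scale 6 were lower and 3 higher.

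Genes of acyl-CoA activation and triglyceride assembly fell at all 15 promoters, with a median of -1.0, and 5 were lower and 7 higher relative to the median region. Lpin1 and Dgat2, of triglyceride synthesis, fell to -1.41 and -1.38, while Agpat3, an acyltransferase, and Pnpla2, a triglyceride lipase, were at -0.37 and -0.47 and higher relative to the median region. Sterol synthesis genes under SREBP-2 fell at all 18 promoters, with a median of -0.89, and 5 were lower and 6 higher relative to the median region. The synthesis enzymes Hmgcs1 and Msmo1 were at -0.65 and -0.63 and higher relative to the median region.

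**Figure D5:**
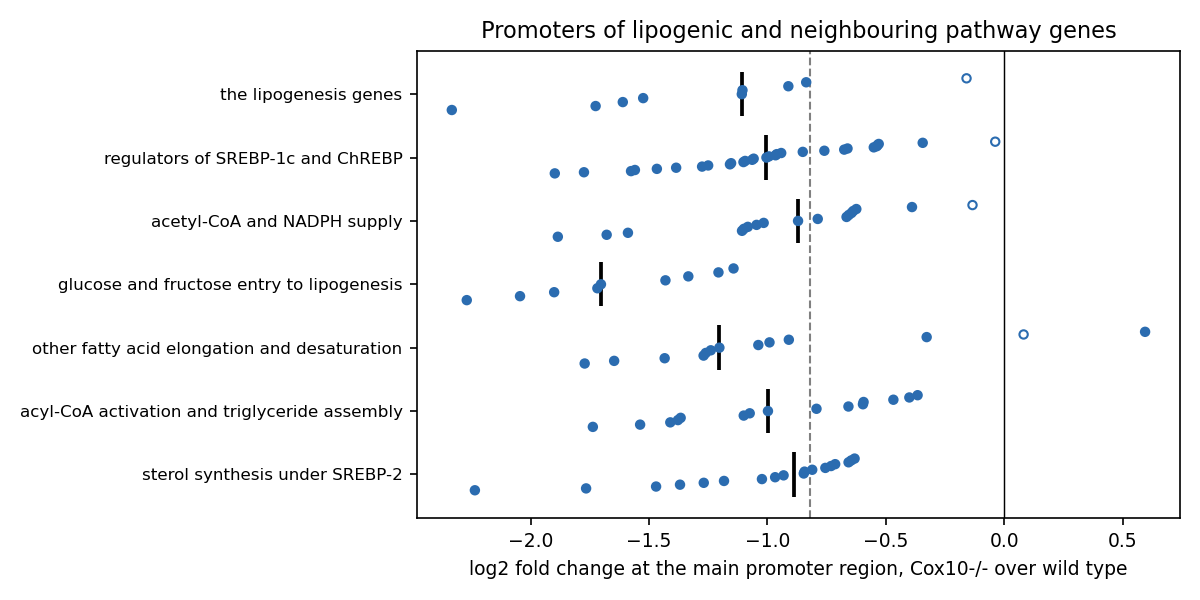
Log2 change at the main promoter, knockout minus wild type, for the lipogenic genes and the 6 pathway lists. Each point is a gene, open points were not called, black bars are list medians and the dashed grey line is the median of all promoter genes at -0.82. Genes of glucose and fructose entry have the lowest median, -1.70, and Fads3 stands above 0 at 0.59.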

How the data were processed

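H3K27ac was measured by ChIP-seq. The values used are normalised reads per region, a signal the authors deposited, and each came out as whole reads over a size factor common to its library (100% of values, within 0.01 reads). Wild-type size factors ran from 0.730 to 0.782 and knockout size factors from 1.18 to 1.32. Their origin was not given in the sources used here. Per the labels' protocols, spike-in chromatin was added. In the same table the authors deposited, for knockout over wild type, a log2 fold change, a test statistic (a score), a p-value and its adjusted form, with each region's coordinates and annotation. Per the submitters' processing notes, which give no roles, the tools were deepTools 3.5.0, MACS and BWA 0.7.5 and the build was mm10. Coordinates are given as in the table, whose counting base is not stated. Of 36446 rows, 59 repeated another and were dropped. Chromosome 16 and the 6 input libraries were not analysed here.

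The main test was limma 3.58.1 (R 4.3.3), fitted with a trend to log2(value + 1) of all regions together, without filter or block. Limma draws each region's variance towards a trend over all regions, so an SE or p is not that of its own 3 against 3 libraries alone, and the pseudocount understates changes of weak regions. A gene's main promoter region is the one annotated within 1 kb of a start with the highest mean signal. The region fit on the deposited scale and the promoter difference were tested on simulated data with known changes. In the simulation of the region fit only a small share of regions changed, unlike in the real data. The centred fit was not tested in this way. The genes, lists and tests were chosen with earlier results of these data known. All lipogenic genes are named with their regions. Of each other list, up to 2 genes per direction with the smallest adjusted p at the main promoter, on either scale, are named. Some genes that this rule names are not reported here. Scap, Insig1, Pklr and Acly were added after their values were seen, for their place in the pathway. Alternatives were other pseudocounts, filters and thresholds, a replicate block, leaving out each library, other scalings, and count tests on the recovered reads (DESeq2 1.42.0, edgeR 4.0.16). With the authors' size factors edgeR called 31769 regions lower and 1608 higher, and 63 and 4 of the lipogenic regions. Pairs of libraries of a genotype had a chi-square of 1.06 to 1.19 per degree of freedom, against 10.2 to 10.6 between genotypes, and were counted as labelled.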

Additional observations from a re-analysis of the deposited data

How the results depend on the processing

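The count of lipogenic regions lower in the knockout (63) was 61 to 62 when 1 library was left out and the 4 higher stayed 4 in number. It was 63 with other pseudocounts. A minimum mean signal of 50 normalised reads was added after seeing the data, since a minimum of 10 removed none. It left fewer of the lipogenic regions to test, and among those left 39 were lower and 3 higher. Scaling moved the counts most. Lower and higher regions were 26 and 11 when centred, 29 and 11 when scaled to library totals, 27 and 11 with edgeR and TMM, and 20 and 11 with DESeq2's own size factors. For promoter regions (22 and 0; 21 to 22 and 0 without 1 library) the same settings gave 10 and 4, 12 and 4, 10 and 4, and 8 and 4. Promoters taken within 3 kb, a larger set of regions, gave 35 and 1. Centred counts were 21 to 24 lower and 10 to 13 higher without 1 library. DESeq2 with the authors' size factors and the authors' deposited table each gave 61 lower and 4 higher.

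For promoter minus other regions, 3 genes lower became 1 lower and 1 higher with promoters taken within 3 kb, where Acacb turned to 0.21 (adjusted p = 0.145), Mlxipl was no longer called (-0.58, adjusted p = 0.079) and Acaca was higher by 0.80. That alternative moves regions from one side of the difference to the other. It could not change Me1 and could not be computed for Srebf1, Thrsp and Fasn. Without 1 library 2 to 3 were lower and 0 higher.

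Centring changed the list counts of lower and higher promoters to 6 and 10 for the regulators, 3 and 8 for acetyl-CoA and NADPH supply, 6 and 3 for elongation and desaturation, 5 and 7 for triglyceride assembly and 5 and 6 for sterol synthesis. Over all regions of a gene, 13 of 17 acetyl-CoA and NADPH genes were lower and 1 was higher, beside 16 and 0 at main promoters. The log2 ratio of the summed signal (-1.15) was -1.19 to -1.10 without 1 library and -0.14 as a share of all normalised reads.

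Libraries with the same replicate number did not deviate together (correlations -0.00092, 0.0074 and 0.0054), so the numbers were not used as pairs. With the replicate number as a replicate block the counts were 63 and 4 for regions, 22 and 0 for promoters and 26 and 11 when centred, and 2 genes fell at promoters relative to their other regions, since Acacb was not called (adjusted p = 0.060).

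For single regions on the deposited scale, 857 of 871 values kept direction and side of the threshold, and none changed sign. On the centred scale 642 of 690 did. Values called in neither fit were counted as kept, and 26 centred values changed sign among them. With 3 libraries per genotype and as few as 8 reads in a library, small changes at the weakest regions could not be resolved.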
